A study of Rattus norvegicus with 3 samples.

Results

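The peaks described here are those of the distal 3 Mb of the rat autosomes, the stretch next to the high-coordinate end of each chromosome. A listed peak of H3K4me3 or H3K9me3 on chromosomes 1 to 20 was taken when its midpoint lay within 3000000 bp of the largest peak end of its chromosome in either list. This gave 686 peaks of 57275 in all, 165 of the 7684 H3K4me3 peaks and 521 of the 49591 H3K9me3 peaks. The other 7407 and 47627 peaks of the same autosomes served for comparison, chromosome by chromosome.

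The study mapped both marks by chromatin immunoprecipitation and sequencing (ChIP-seq) in round spermatids, the haploid germ cells that follow meiosis, from testis of untreated Sprague-Dawley rats. It has 3 libraries, 1 with an antibody against H3K4me3, 1 with an antibody against H3K9me3 and 1 without antibody, each antibody used at 2 μg per precipitation. Neither the labels nor the lists say how old or how many the animals were, or whether cells of several were pooled. The lists hold no genes, and an annotation of their build (rn6) was not used, so the cell type could not be checked against its markers and no peak could be placed in a gene, exon or intron.

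H3K4me3 is laid down at active promoters, above all those rich in CpG, and in meiotic cells also by PRDM9 at sites of recombination. H3K9me3 is laid down by enzymes such as SETDB1 and SUV39H, is bound by HP1 and keeps satellites, retroelements and gene clusters silent. Chromosome ends carry the telomere repeat and, next to it, sequence that in mammals is often rich in genes and in duplicated segments.

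The end of an autosome was measured from its last peak, since sequence lengths of rn6 were not used, and the stretch between the last peak and the end of the assembled sequence is unknown. Each distal window therefore holds at least the 1 peak that defines it. That peak was H3K9me3 on 13 autosomes and H3K4me3 on 7. Each mark rests on 1 library of unknown depth with no replicate, so no p-value was computed. Each interval is a 95% interval for counting error alone, under which neighbouring peaks count separately. The names of the lists refer to a negative, taken here to be the antibody-free library as background. The labels do not state this, so the direction of the enrichment rests on that reading.

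Pooled over the 20 autosomes, the density of the 165 distal H3K4me3 peaks was close to that of the rest, but it was lower once chromosome 17 was left out. They numbered 2.75 per Mb against 2.90 per Mb, a ratio of 0.949 (exact interval 0.808 to 1.11). They covered 203 kb, or 0.338% of the 60 Mb, against 0.328% of the rest, a ratio of 1.03. Without chromosome 17 the ratio of densities was 0.820 (0.686 to 0.972), an interval wholly below 1, and that of covered length 0.807. Chromosome 17 had the highest ratio, and leaving out any other single autosome gave a higher value. The interval takes no account of that choice. The ratio of densities had a median of 0.809 over single autosomes and was lowest on chromosome 2, at 0.140, and highest on chromosome 17, at 3.15. Density was higher in the distal part than in the rest on 7 autosomes and lower on 13. Ratios below 1 were common along the autosomes, since the other 3-Mb windows, set out below, had a median ratio of 0.707.

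**Figure D1:**
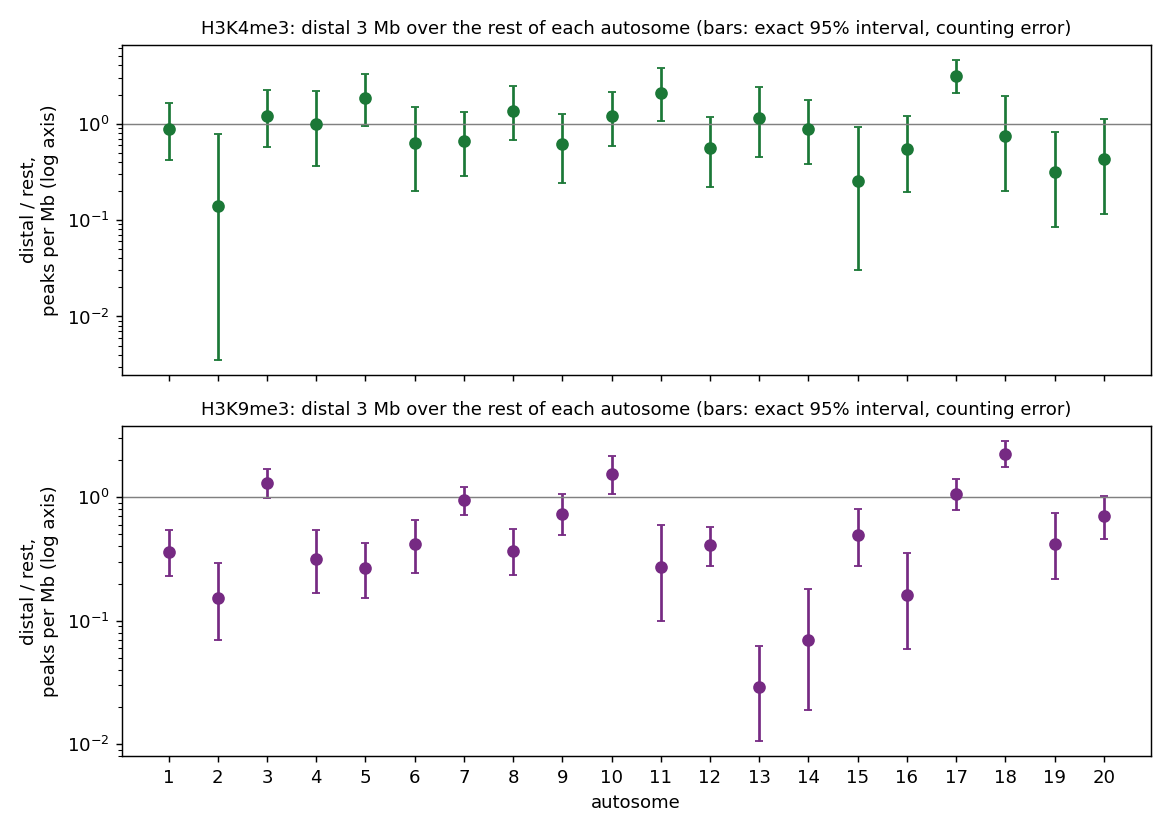
Ratio of peaks per Mb in the distal 3 Mb to the rest of the same autosome (log axis, 1 point per autosome, bars are exact 95% intervals for counting error, the grey line marks a ratio of 1). Below 1 lie 13 of the 20 H3K4me3 points, with chromosome 17 highest at 3.15, and 16 of the 20 H3K9me3 points.

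Chromosome 17 held 30 distal H3K4me3 peaks and chromosomes 5 and 11 held 12 each. The next were chromosomes 8, 10 with 11 each and 1, 3 with 10 each. By ratio the 5 highest autosomes were chromosome 17 at 3.15 (2.08 to 4.60), chromosome 11 at 2.09 (1.06 to 3.76), chromosome 5 at 1.84 (0.945 to 3.26), chromosome 8 at 1.35 (0.669 to 2.45) and chromosome 3 at 1.19 (0.566 to 2.20). Only on chromosomes 17 and 11 did the interval lie wholly above 1. Chromosome 11, which has few H3K4me3 peaks for its length elsewhere (1.91 per Mb), had no 3-Mb window with more of them than its distal one.

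At the low end, chromosome 2 held a single distal H3K4me3 peak, with a score of 32.6, and a ratio of 0.140 (0.00354 to 0.784). Chromosome 15 held 2 peaks (ratio 0.251, 0.0303 to 0.916) and chromosome 19 held 4 (0.316, 0.0854 to 0.819). On these 3 the interval lay below 1, and on the remaining 15 autosomes it included 1. With so few peaks per window, differences that lie within these intervals were not detectable.

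To set these ratios against other stretches of the same chromosomes, each autosome was tiled into 3-Mb windows back from its last peak. A density at least 2 times that of the rest of the autosome was found in 2 of the 20 distal windows, against 8.71% of all 861 windows. A density at most 0.5 times the rest was found in 4 distal windows, against 34.5% of all windows. By covered length the counts were 3 distal windows (10.8% of all) and 6 (40.1% of all). Distal windows held a median of 7.0 H3K4me3 peaks (quartiles 4.75 and 10.25) and the other 841 a median of 6.0 (3 and 10). On 14 of 20 chromosomes only a minority of the other windows held more H3K4me3 peaks than the distal one. Ties counted in favour of the distal window, and on chromosomes 4 and 18 it equalled the median window. With 20 distal windows, of which 7 hold an H3K4me3 peak by definition, these counts do not set the distal windows apart from the others.

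H3K9me3 was sparser. Its 521 distal peaks numbered 8.68 per Mb against 18.6 per Mb in the rest, a ratio of 0.466 (0.426 to 0.508), and covered 0.862% of the sequence against 2.48%, a ratio of 0.348. The ratio of densities was below 1 on 16 autosomes, with the interval wholly below 1 on 13. Ratios below 1 were common for this mark too, since the other 3-Mb windows had a median ratio of 0.424. The share of those windows with an interval wholly below 1 was not computed. The median autosome stood at 0.412. The lowest were chromosome 13 at 0.0288 (0.0106 to 0.0628), chromosome 14 at 0.0701 (0.0191 to 0.180) and chromosome 2 at 0.154 (0.0703 to 0.292), with 6, 4 and 9 distal peaks. On chromosome 13 the rest held 69.3 H3K9me3 peaks per Mb, far above the 18.6 of all autosomes, and without chromosome 13 the pooled ratio was 0.553.

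The 5 highest autosomes for H3K9me3 were chromosome 18 at 2.26 (1.76 to 2.86), chromosome 10 at 1.54 (1.07 to 2.14), chromosome 3 at 1.30 (0.982 to 1.70), chromosome 17 at 1.06 (0.786 to 1.40) and chromosome 7 at 0.942 (0.719 to 1.21). They held 75, 36, 56, 51 and 61 distal peaks, 53.6% of the total. Chromosomes 18 and 10 were the ones with an interval above 1. For H3K4me3 the distal window of chromosome 18 equalled the median window of that chromosome, with 4 peaks and a ratio of 0.738 (0.198 to 1.93).

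Set against single windows rather than the mean of the rest, the distal ends lay near the middle for H3K9me3. A density at most 0.5 times the rest of the autosome was found in 13 of 20 distal windows, and in 55.9% of all windows (by covered length 13 of 20 and 61.6%). The median ratio was 0.412 for distal windows and 0.424 for the others, and the median number of peaks was 20.5 (quartiles 11.25 and 33) against 19 (8 and 47). A density at least 2 times the rest was found in 1 of 20 distal windows, against 13.8% of all windows, and by covered length in 0 of 20, against 13.6%. With 20 distal windows these counts are too small to set them apart from the other windows. Distal windows held from 4 to 75 H3K9me3 peaks. When 1-Mb windows with over 5% H3K9me3 cover were left out of both parts, 372 distal peaks remained and the pooled ratio was 0.899. Such dense windows held 65.6% of the H3K9me3 peaks of the rest and 28.6% of the distal ones. Because they were defined by H3K9me3 itself, this value describes the lists and is no independent check.

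**Figure D2:**
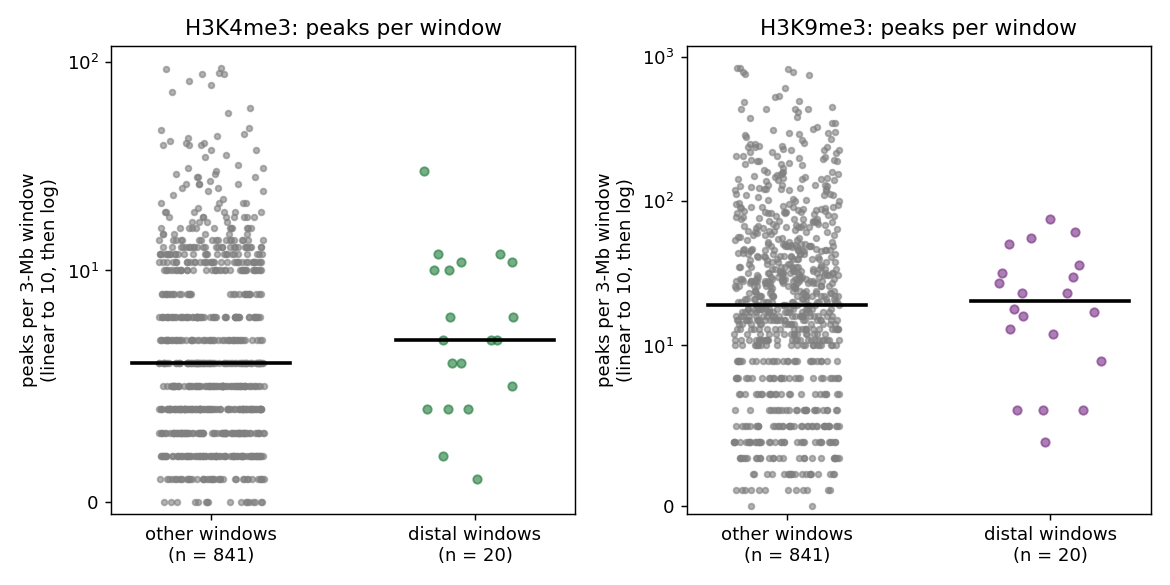
Number of peaks per 3-Mb window (vertical axis linear to 10, then logarithmic) for the 20 distal windows (coloured) and the 841 other windows of the autosomes (grey), with black lines at the medians. The medians lie close together, 7.0 and 6.0 for H3K4me3 and 20.5 and 19 for H3K9me3, and the distal windows range from 1 to 30 and from 4 to 75 peaks.

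Distal H3K9me3 peaks were also lower in score and narrower. The score is the authors' value per peak, with no unit stated, used here to rank peaks within a list. The median score of distal H3K9me3 peaks was 46.3, against 61.7 in the rest, and their median width 778 bp, against 938 bp. The median score was lower in the distal part on 16 autosomes and the median width on 17. The share of other 3-Mb windows with lower scores or widths was not computed, so these counts have no background. In the dense windows, which held most H3K9me3 peaks of the rest, the median score was 77.8 and the median width 1073 bp. A score of at least 100 was reached by 92 of 521 distal H3K9me3 peaks (17.7%, Wilson interval 14.6 to 21.2%) and by 31.4% of the rest (30.9 to 31.8%). Outside the dense windows the shares were 9.68% (7.07 to 13.1%) and 14.4% (13.9 to 14.97%), with median scores of 41.7 and 45.2. Median widths there were 742 bp in the distal part and 784 bp in the rest.

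For H3K4me3 the median score was 44.2 in the distal part and 49.2 in the rest, and the median widths were 875 and 889 bp. A score of at least 100 was reached by 50 of 165 distal H3K4me3 peaks (30.3%, 23.8 to 37.7%) against 21.9% of the rest. Without chromosome 17 the distal share was 19.3% (13.5 to 26.7%), and the remaining autosomes had 22.1% in the rest (21.1 to 23.1%). The higher distal share was thus not seen once chromosome 17 was left out.

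Pooled over the 20 autosomes, peaks of both marks were denser in the last 1 Mb than in the 2 Mb before it. They were not denser there than between 4 and 5 Mb from the end, where H3K9me3 had 21.5 peaks per Mb and H3K4me3 4.30. Of the 521 H3K9me3 peaks, 299 lay in the last 1 Mb, 98 between 1 and 2 Mb from the end and 124 between 2 and 3 Mb. This is 14.95 per Mb in the last 1 Mb and 5.55 per Mb in the 2 Mb before it, so the pooled ratio to the rest was 0.811 for a distal window of 1 Mb and 0.298 for the part from 1 to 3 Mb. A few chromosomes held most of them. Chromosome 18 held 72 of the 299, chromosome 3 held 48, chromosome 17 held 33, chromosome 7 held 30, chromosome 9 held 27 and chromosome 10 held 26. The median autosome had 6.0 in the last 1 Mb and 3.5 in each of the next 2, and chromosomes 14 and 15 had none in the last 1 Mb. All other 1-Mb windows of the autosomes had a median of 5 H3K9me3 peaks (quartiles 2 and 14) and a mean of 18.3. A density at least 2 times the rest of the autosome was found in the last 1 Mb of 5 autosomes (3, 9, 10, 17 and 18) of 20, which held 68.9% of those peaks, against 13.2% of all 2606 windows of 1 Mb.

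The H3K4me3 peaks numbered 81 in the last 1 Mb, 35 in the second and 49 in the third. Without chromosome 17 the last 1 Mb held 55, or 2.89 per Mb, against 2.89 per Mb in the rest of those 19 autosomes. With a distal window of 1 Mb the pooled ratio of covered length was 1.70, against 1.03 for 3 Mb. A density at least 2 times the rest was found in the last 1 Mb of chromosomes 5 and 17, against 10.4% of all windows of 1 Mb. The 1-Mb bins with most H3K4me3 cover were the last of chromosome 17 with 47.5 kb, the third from the end of chromosome 11 with 11.1 kb, the last of chromosomes 5 and 7 with 8.85 and 8.43 kb, and the third of chromosome 9 with 6.01 kb. For H3K9me3 they were the last of chromosomes 3, 18, 17, 7 and 9, with 69.2, 66.1, 50.7, 30.9 and 26.4 kb. The innermost H3K4me3 peak inside lay 2.95 Mb from the end of chromosome 10 with a score of 38.2, and the first outside lay at 3.06 Mb on the same chromosome with a score of 31.1. For H3K9me3 they lay at 2.91 Mb on chromosome 5 (score 34.2) and 3.05 Mb on chromosome 17 (score 54.7).

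**Figure D3:**
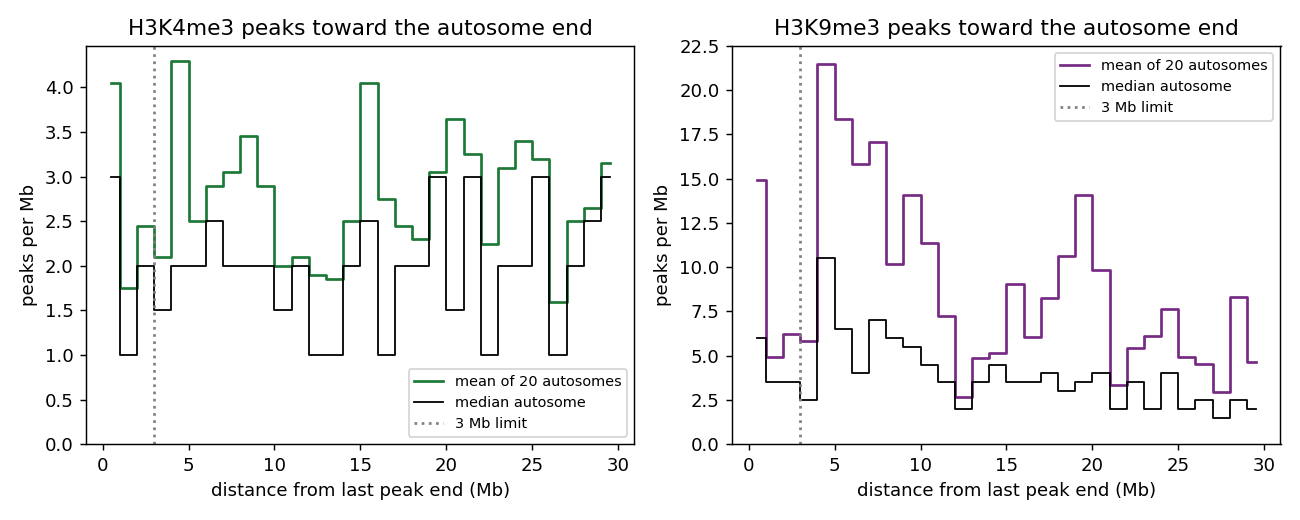
Peaks per Mb in 1-Mb steps from the last peak end (horizontal axis, 0 to 30 Mb), as the mean of the 20 autosomes (coloured) and the median autosome (black), with the 3-Mb limit dotted. The mean H3K9me3 density was 14.95 in the first step and 4.90 in the second, whereas the median autosome had 6.0 and 3.5 peaks.

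**Figure D4:**
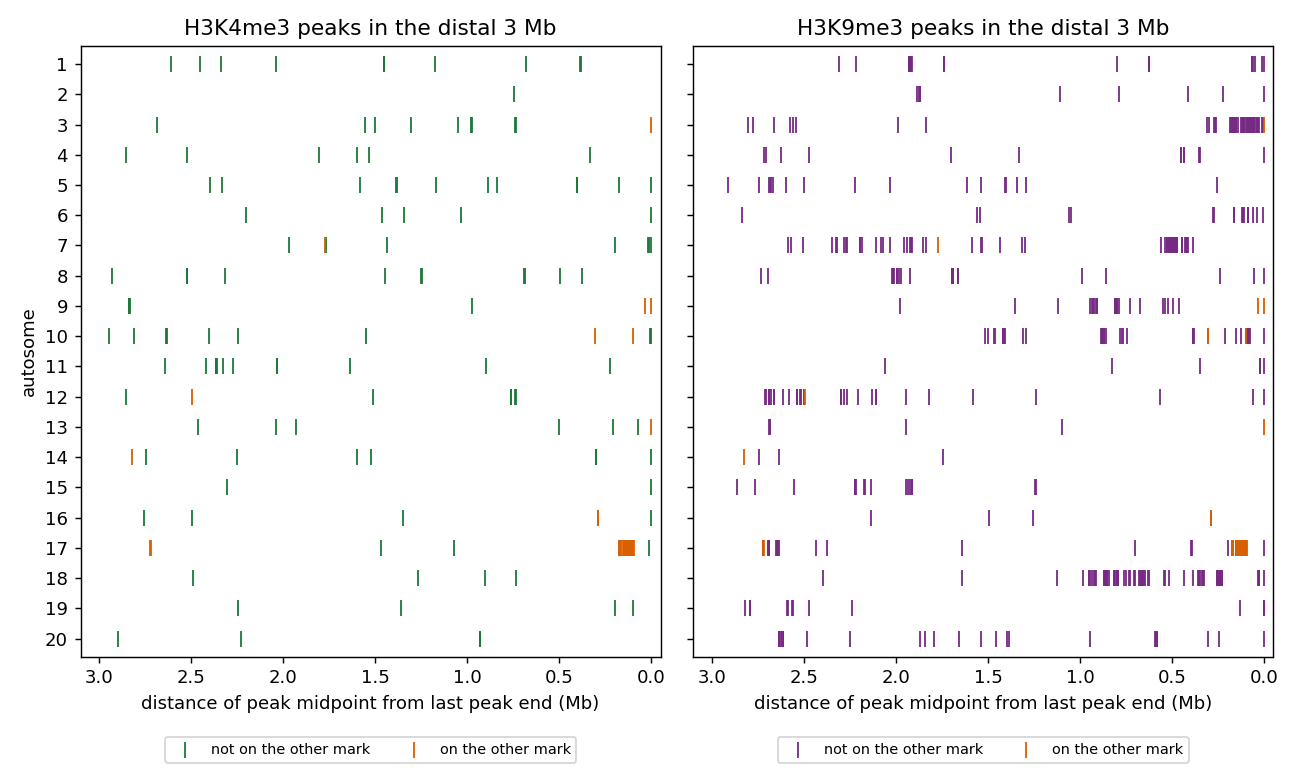
Midpoint of every distal peak by autosome (vertical axis) and distance from the last peak end in Mb (horizontal axis, end at the right). Orange marks stand for peaks that overlap a peak of the other mark, most of them in the group at the end of chromosome 17. Dense groups of H3K9me3 peaks are seen at the ends of chromosomes 3, 7, 9, 10, 17 and 18.

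Many distal H3K9me3 peaks came in runs, defined as at least 5 peaks of a mark with gaps of at most 25 kb between neighbours. There were 26 such runs, with 284 of the 521 peaks (54.5%), against 77.0% of the H3K9me3 peaks in the rest. Neighbouring distal H3K9me3 peaks were a median of 6.395 kb apart, and those of the rest 1.69 kb. The run with most peaks lay on chromosome 3 from 177514646 to 177699324 and reached the last peak of that chromosome. Its 43 peaks covered 65.7 kb of 185 kb (35.6%), with scores from 30.1 to 902 and a median of 96.2. It held the widest distal H3K9me3 peak outside chromosome 17, 4951 bp from 177589229 to 177594179 with a score of 902. A single H3K4me3 peak lay in this run, next to its end, with a score of 35.2.

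Chromosome 18 differed in form. Its last 1 Mb held 72 H3K9me3 peaks over 66.1 kb, most of them in 6 runs with 18, 15, 8, 7, 7 and 7 peaks. The most densely covered of these, from 87924873 to 87955940, was 56.2% covered by its 18 peaks, which had a median score of 89.2 and a highest score of 433. The H3K4me3 list had 2 peaks in that 1 Mb, and neither overlapped H3K9me3. On chromosome 7 a run of 29 H3K9me3 peaks from 144502779 to 144647832 covered 20.7% of 145 kb, 415 kb before the last peak. Its median score was 46.3, its highest 143, and no H3K4me3 peak lay in it. On chromosome 10 the distal peaks were fewer but included the highest score of any distal H3K9me3 peak outside chromosome 17, 1275 at 112277787 to 112280871. The H3K4me3 peak within it had a score of 37.7.

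At the end of chromosome 17 both marks had high scores in the same place. Between 89386624 and 89468853, a stretch of 82.2 kb that ends 94.9 kb before the last peak, lay 25 H3K4me3 peaks and 28 H3K9me3 peaks. They covered 44.8 and 47.0 kb, or 54.4% and 57.1% of it. These 25 were 83.3% of the distal H3K4me3 peaks of chromosome 17 and 15.2% of those of all 20 autosomes. It was the one run of H3K4me3 peaks in any distal window, whereas the autosomes as a whole had 170 such runs, 10 of them outside the distal windows with 25 or more peaks.

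All 25 H3K4me3 peaks of this stretch overlapped H3K9me3, and 25 of the 28 H3K9me3 peaks overlapped H3K4me3. The shared sequence was 42.7 kb, 95.4% of the length under H3K4me3 and 91.0% of that under H3K9me3. Their edges lay close together. Over 28 overlapping pairs the starts differed by a median of 64.0 bp and the ends by 73.5 bp, against 219 and 207 bp over 2469 pairs in the rest of the autosomes. The shared part was a median of 83.2% of the joint length of a pair (quartiles 58.5 and 89.3%), against 54.6% (29.6 and 80%) in the rest. Those pairs of the rest were not limited to dense H3K9me3 windows. In the dense windows of the rest, 1654 of 1946 H3K4me3 peaks (85.0%) overlapped H3K9me3, so this trait was not particular to the stretch. Of the H3K9me3 peaks in those windows, 4.51% overlapped H3K4me3.

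Scores in this stretch reached the top of the distal range for both marks. The 10 distal H3K4me3 peaks with the highest scores all lay in it. They included 3 at 3100, from 89388883 to 89394441, from 89457670 to 89462247 and from 89453663 to 89457567, and further ones of 3096, 3017 and 1434. The remaining 4 ran from 626 to 958. The median over the 25 was 482, with a range from 78.2 to 3100, and 13 of them exceeded the highest score of any other distal H3K4me3 peak, 405. For H3K9me3, 9 of the 10 highest distal scores lay in the same stretch, the exception being the chromosome 10 peak above. Here 4 peaks had 3100, and the median over the 28 was 418.

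The 5 widest distal H3K4me3 peaks, of 5559, 4993, 4578, 4106 and 3905 bp, were among them. The widest H3K9me3 peaks there, 5359, 5053, 4434 and 4129 bp, lay over H3K4me3 peaks. The peak from 89388883 to 89394441 was H3K4me3 over 5559 bp and H3K9me3 from 89388964 to 89394322. That from 89407498 to 89411603 was matched by H3K9me3 from 89407465 to 89411593, with scores of 3017 and 3026. Beyond the stretch, the distal part of chromosome 17 held 5 H3K4me3 peaks with a median score of 39.1. One of them, from 89551534 to 89554236 with a score of 244, lay 9.52 kb before the last peak and off H3K9me3.

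**Figure D5:**
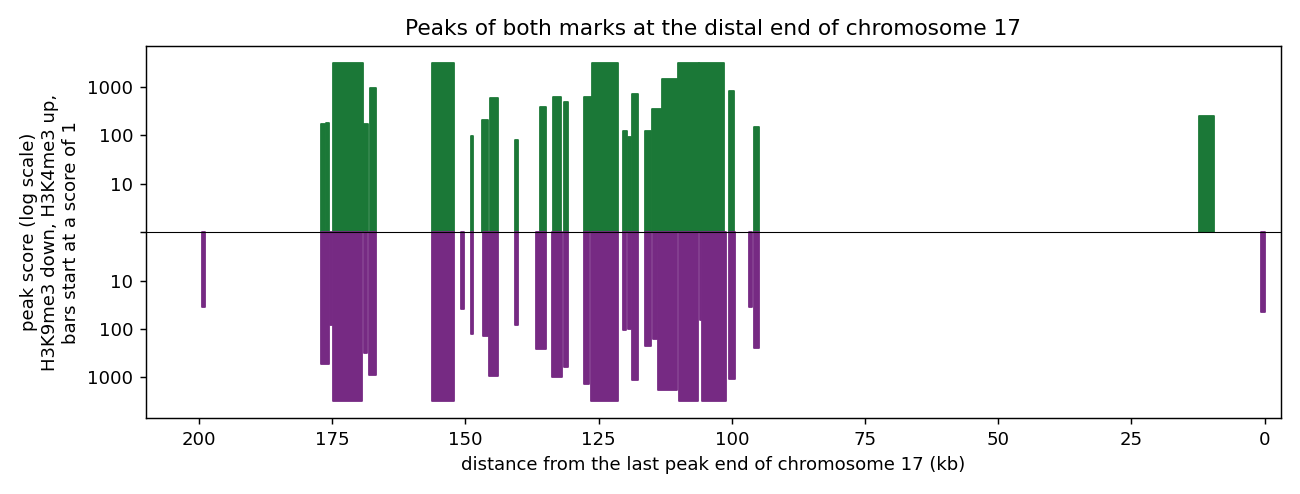
Peaks at the end of chromosome 17 drawn to scale by distance from the last peak end in kb (horizontal axis), H3K4me3 upward and H3K9me3 downward, with bar height giving the authors' score on a log scale that starts at 1. The 25 H3K4me3 and 28 H3K9me3 peaks lie opposite each other, with the tallest at 3100 on both sides.

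Elsewhere in the distal windows the marks seldom met. Of the 165 distal H3K4me3 peaks, 38 overlapped an H3K9me3 peak (23.0%, 17.3 to 30.02%), against 31.7% in the rest (30.7 to 32.8%), and 27 of the 38 lay on chromosome 17. On the other 19 autosomes it was 11 of 135 (8.15%, 4.61 to 14.0%) against 31.6% (30.6 to 32.7%). Outside the dense H3K9me3 windows the distal share was 8.82% (5.12 to 14.8%) and that of the rest 12.7% (11.9 to 13.7%), so that the intervals met. With a distal window of 1 Mb the direction turned, 40.7% against 31.4%. Of the 33 overlapping H3K4me3 peaks in that window 25 were in the chromosome 17 stretch, whose part in the turn was not tested. Read the other way, 38 of 521 distal H3K9me3 peaks overlapped H3K4me3 (7.29%, 5.36 to 9.85%) against 4.39% in the rest (4.21 to 4.58%), and without chromosome 17 it was 2.34% (1.31 to 4.14%) against 4.35%. Distal windows of 11 autosomes held no overlapping pair. How many other windows of the same size held none was not computed, so this count has no background and does not set the distal windows apart.

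The 11 H3K4me3 peaks on H3K9me3 outside chromosome 17 were spread over 8 autosomes. Their H3K4me3 scores ran from 33.0 to 202 with a median of 43.5. The highest was on chromosome 12 from 50211794 to 50214854, 3061 bp wide, over an H3K9me3 peak of 1453 bp with a score of 57.8. On chromosomes 3, 9 and 13 the last peaks of both marks overlapped at the very end. The H3K4me3 peaks there had scores of 35.2, 33.0 and 38.6, and the H3K9me3 peaks 576, 39.6 and 51.1.

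The 127 distal H3K4me3 peaks away from H3K9me3 were set apart as the larger group. They numbered 2.12 per Mb, against 1.98 per Mb in the rest, with median scores of 40.01 and 43.8 and median widths of 867 and 889 bp. The highest scores among them were 405 on chromosome 17 from 88092728 to 88095711, 251 on chromosome 5 from 171325485 to 171329295 and 245 on chromosome 5 from 173483021 to 173486632. The chromosome 5 peaks were 3811 and 3612 bp wide, the widest distal H3K4me3 peaks outside chromosome 17. After the peak of 244 on chromosome 17 described above came 231 on chromosome 10 from 111031951 to 111034375 and 225 on chromosome 11 from 88036249 to 88039022. On chromosome 7 such a peak of 2260 bp with a score of 183 was itself the last peak of the chromosome, from 145060642 to 145062901.

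The opposite ends of the same autosomes, the first 3 Mb counted from the start of the coordinates, held more peaks in total. They held 364 H3K4me3 and 2981 H3K9me3 peaks, against 165 and 521 in the distal windows. A few chromosomes held many of these: 528, 520 and 440 H3K9me3 peaks on chromosomes 8, 2 and 13, and 97 and 57 H3K4me3 peaks on chromosomes 7 and 2. The median ratio of first-end density to the remainder of the autosome was 1.01 for H3K4me3 (above 1 on 11, below on 9). For H3K9me3 it was 1.98 (above 1 on 14, below on 6). H3K9me3 peaks were fewer at the distal than at the first end on 16 autosomes and more numerous on 3. H3K4me3 peaks were fewer on 11 and more numerous on 9. At the first end 73.6% of the H3K4me3 peaks lay on H3K9me3 (68.9 to 77.9%), against 23.0% at the distal end (17.3 to 30.02%). The first end was counted from coordinate 1 and the distal end from the last peak, so their outlines are not set in the same way.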

How the data were processed

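The build rn6 and the tools Bowtie 1.2, FastQC and bcl2fastq are listed in the submitters' processing notes, with no role or order. Peak names show the caller MACS. For its settings, its duplicate handling and multiply matching reads no source was found among those used here. The deposited lists give position and a score per peak as the authors left it, with no unit stated and a lowest value of 30. Reads were 75 bp, paired. Starts are counted from 1. Peaks were assigned by midpoint, and overlap meant at least 1 bp. Density is peaks per Mb of the part counted, pooled over 60 Mb of distal windows or the remainder of the 2615 Mb of autosomes. Covered length is the sum of widths. Ratios carry exact conditional Poisson intervals and shares Wilson intervals, at 95%. The calculation was tested on simulated data. The simulated peaks were placed at random without clusters, so that test says nothing about the intervals where peaks cluster. Computation used scipy 1.17.1, pandas 2.3.3 and numpy 2.4.6 under Python 3.11.15, with matplotlib 3.10.9 for plots. Members, lists and regions were chosen with earlier results of these data known. Named, per mark, are the 10 highest-scoring and 5 widest distal peaks, the 5 highest and 3 lowest autosomes and the 5 richest 1-Mb bins. Runs, the chromosome 17 stretch and the score and width limits were chosen after values were seen. Peaks on X, Y, mitochondrial and unplaced sequence stayed out of the comparison. Alternatives are in the closing section. No sequences are shown, because rn6 was not used here.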

Additional observations from a re-analysis of the deposited data

Results flagged for a closer look

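The X chromosome was outside the comparison. Its distal 3 Mb, measured from its last peak, held 11 H3K9me3 peaks. This is above the limit of 3 that a count of 0 allows. Because the window was measured from a listed peak, it could not be empty, and no conclusion is drawn from this comparison. The 11 peaks covered 8.87 kb and had scores from 30.9 to 80.0 with a median of 35.4. They gave 0.635 times the density of the rest of X (0.316 to 1.14), an interval that included 1. The H3K4me3 list had 1 peak there, with a score of 79.2, and it was not on H3K9me3.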

How the results depend on the processing

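Ratios are distal over rest. With a window of 1, 2 and 5 Mb, H3K9me3 peaks per Mb gave 0.811, 0.535 and 0.571 (3 Mb: 0.466), and its covered length gave 0.662, 0.413 and 0.486 (0.348). H3K4me3 with 1 Mb gave 1.40 in peaks per Mb and 1.70 in covered length. With scores at or above the list median, H3K9me3 gave 0.315 and 0.251. Without dense windows it gave 0.899 and 0.828. The median autosome gave 0.412 and 0.299 for H3K9me3 and 0.765 for H3K4me3 covered length. Without the chromosome 17 stretch, H3K4me3 gave 0.805 and 0.804, H3K9me3 covered length 0.317, and the H3K4me3 share on H3K9me3 was 22.4 points lower in the distal part (value -22.4, as reported -8.70). That difference reversed to 9.30 with 1 Mb. From 1 to 3 Mb the ratios were 0.724 for H3K4me3 and 0.298 for H3K9me3. These last settings were added after the data were seen. Leaving out 1 autosome at a time gave 0.820 to 0.985 and 0.807 to 1.08 for H3K4me3, 0.414 to 0.553 and 0.306 to 0.439 for H3K9me3, and -23.5 to -4.90 for the share. The cause of these changes was not tested. No paired analysis was possible because each mark has 1 library.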

Other observations

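Among H3K4me3 peaks away from H3K9me3, a width of at least 2 kb was reached by 19 of 127 distal peaks (14.96%, Wilson interval 9.79 to 22.2%) and by 438 of 5057 in the rest (8.66%, 7.92 to 9.47%). The 19 lay on 12 autosomes, at most 3 on one, and had scores from 108 to 405 with a median of 166. The contrast depended on the limit, which was chosen after the data were seen. At 1.5 kb the shares were 19.7% and 18.0%, and at 2.5 kb they were 4.72% and 4.79%.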
